A study of Drosophila melanogaster with 2 samples.

Results

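The DNA replication genes examined here were a list of 35 protein-coding genes of Drosophila melanogaster that load, start and drive the replication fork, supply its building blocks, or control the transcription of this machinery. They were matched by symbol to the dm6 annotation, which found 34 of the 35 among 13968 protein-coding genes. The listed name RpA-70 was present only as a synonym of RPA1, so that gene was left out of the counts and is described separately. The measurement was chromatin immunoprecipitation followed by sequencing (ChIP-seq) of maf-S, the small Maf protein of the fly, a basic leucine zipper factor. All samples were whole embryos of both sexes pooled, collected from 0 to 24 hours of development, from a transgenic line that stably expressed maf-S with GFP fused to its C-terminus, and the precipitation used an antibody against GFP (a label field for the antibody names maf-S, the tagged protein). There was 1 group with 2 biological replicates, which the labels number 2 and 3 and trace to separate biosamples, and no other genotype, age or treatment, so the design allows a description of where these genes stand among the bound sites and no contrast between conditions. Whole embryos mix all cell types and stages of this interval, so neither the cells nor the stage in which a site was bound can be told from these lists.

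Replication starts from origins at which the origin recognition complex, Cdc6 and Cdt1 (dup in flies) load the ring-shaped MCM helicase, while geminin holds Cdt1 back. The helicase is then activated with GINS, and polymerases work on the sliding clamp PCNA, which the RFC complex loads. In flies, transcription of many of these genes is driven at the onset of S phase by E2F1 with its partner Dp, and by Dref, which binds the DNA replication-related element (DRE), a sequence first described in the promoters of replication genes. Small Maf proteins bind DNA as dimers, in flies with Cnc, the factor of the antioxidant response.

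Sequences under peaks and before start sites are shown so that the place of the summits can be set against the elements known from replication gene promoters. The stretches printed first run 100 bp to either side of a summit, cut where an annotated exon begins, at Mcm2 (chr3R:8264792-8264969, plus strand), Mcm5 (chr3R:10788297-10788497, plus strand), PCNA2 (chr2L:19584068-19584234, minus strand), Top1 (its stronger peak at chrX:15323319-15323519 and its weaker peak at chrX:15319331-15319478, plus strand), Top2 (chr2L:19453491-19453647, minus strand) and Psf1 (chr3L:1247948-1248019, minus strand). They were read from RefSeq's dm6 genome (Release 6) and are written 5′ to 3′ on the strand of the replication gene. Capitals mark the DRE (TATCGATA), the E2F sequence (TTTCCCGC, TTTCGCGC, TTTGCCGC or TTTGGCGC) or motif 1 (GGTCACAC, a core promoter element bound by M1BP), on either strand. Of these 7 stretches, Top2 held a DRE, the weaker Top1 peak held motif 1, and the other stretches held none of these.
Mcm2: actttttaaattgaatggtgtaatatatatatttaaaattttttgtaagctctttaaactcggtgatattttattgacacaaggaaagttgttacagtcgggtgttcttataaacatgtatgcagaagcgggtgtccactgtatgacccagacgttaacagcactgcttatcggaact
Mcm5: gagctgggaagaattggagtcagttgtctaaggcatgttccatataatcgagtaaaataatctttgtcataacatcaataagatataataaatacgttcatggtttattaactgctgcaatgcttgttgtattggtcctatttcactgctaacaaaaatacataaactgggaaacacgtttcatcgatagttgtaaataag
PCNA2: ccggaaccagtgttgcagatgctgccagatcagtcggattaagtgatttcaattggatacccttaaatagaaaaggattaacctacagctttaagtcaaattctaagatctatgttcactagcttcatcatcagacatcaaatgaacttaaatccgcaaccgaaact
Top1 stronger peak: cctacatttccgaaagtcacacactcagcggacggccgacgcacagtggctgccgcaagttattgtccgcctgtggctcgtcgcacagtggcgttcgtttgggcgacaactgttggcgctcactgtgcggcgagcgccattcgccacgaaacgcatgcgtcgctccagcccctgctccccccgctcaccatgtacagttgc
Top1 weaker peak: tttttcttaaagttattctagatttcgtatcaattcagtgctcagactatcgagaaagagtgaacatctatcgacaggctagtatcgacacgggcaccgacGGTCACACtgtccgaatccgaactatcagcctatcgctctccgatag
Top2: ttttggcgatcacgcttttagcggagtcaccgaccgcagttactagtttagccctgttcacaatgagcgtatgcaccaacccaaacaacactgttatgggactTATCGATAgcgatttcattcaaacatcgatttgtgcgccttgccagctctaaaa
Psf1: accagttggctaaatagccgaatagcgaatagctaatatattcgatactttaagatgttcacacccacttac
The bases just before the start site of Psf1 (chr3L:1247678-1247777, minus strand) are shown next because they hold both a DRE and an E2F sequence, although the summit lay further upstream. They are followed by those of Orc5 (chr2L:13829742-13829836, plus strand), Gnf1 (chr3R:4906522-4906621, plus strand) and RfC4 (chr3L:4136039-4136138, minus strand), which hold a DRE or an E2F sequence and had no peak that passed the authors' threshold.
Psf1 promoter: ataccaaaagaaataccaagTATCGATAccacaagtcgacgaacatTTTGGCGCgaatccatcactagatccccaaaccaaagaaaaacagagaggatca
Orc5 promoter: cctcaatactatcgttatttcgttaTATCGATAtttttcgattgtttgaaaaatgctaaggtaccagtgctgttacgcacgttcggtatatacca
Gnf1 promoter: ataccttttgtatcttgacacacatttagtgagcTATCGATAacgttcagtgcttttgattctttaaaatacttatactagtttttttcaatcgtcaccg
RfC4 promoter: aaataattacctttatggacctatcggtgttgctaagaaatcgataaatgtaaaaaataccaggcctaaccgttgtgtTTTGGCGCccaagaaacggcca

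The data were peak lists deposited by the authors. Each replicate and the pool of both had a list of 30000 regions ranked by signal, the value that the peak caller gave each peak, and 3205 peaks passed the authors' threshold on reproducibility between replicates (the irreproducible discovery rate, IDR). These 3205 were the strongest 3205 of the pooled list, with signals from 72.3 to 1703 and a median of 109. The lists of 30000 were made to include background, and presence at a low rank is no sign of binding. Read depth is unknown here, and the intervals below are exact (Clopper-Pearson) binomial intervals that cover counting error over genes only. A gene is called bound here when a thresholded peak had its summit at most 1 kb from a start site of the gene. Genes that share a promoter share a peak and are not independent.

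maf-S was found at promoters of 11 of the 34 replication genes, with at least 1 bound gene in each of the 6 role groups. This is a share of 32.4% (95% interval 17.4 to 50.5), against 2707 of 13968 protein-coding genes (19.4%, interval 18.7 to 20). The lower bound for the replication genes lies below the share of all genes, so at this number of genes the difference is within counting error. The role groups hold 2 to 10 genes, and the 95% interval of each includes the share of all genes. Counts by role or complex below are therefore descriptions only. The bound genes were dup and geminin of the licensing step, Mcm2, dpa, Mcm5 and Psf1 of the helicase, PCNA2 of the clamps, the topoisomerases Top1 and Top2, the ribonucleotide reductase subunit RnrS, and Dp. Before thresholding, 28 of the 34 genes (82.4%) had a pooled region of any rank within 1 kb, against 63.2% of all protein-coding genes. The median best pooled rank was 8104.5 for the replication genes and 15830.5 for all protein-coding genes, with genes lacking any region placed after the last rank. This order was the same in each replicate: 6324 for replication genes against 16990 for all protein-coding genes in replicate 2, and 6922.5 against 15996.5 in replicate 3. The median of the replication genes itself lay far below the threshold rank of 3205.

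**Figure D1:**
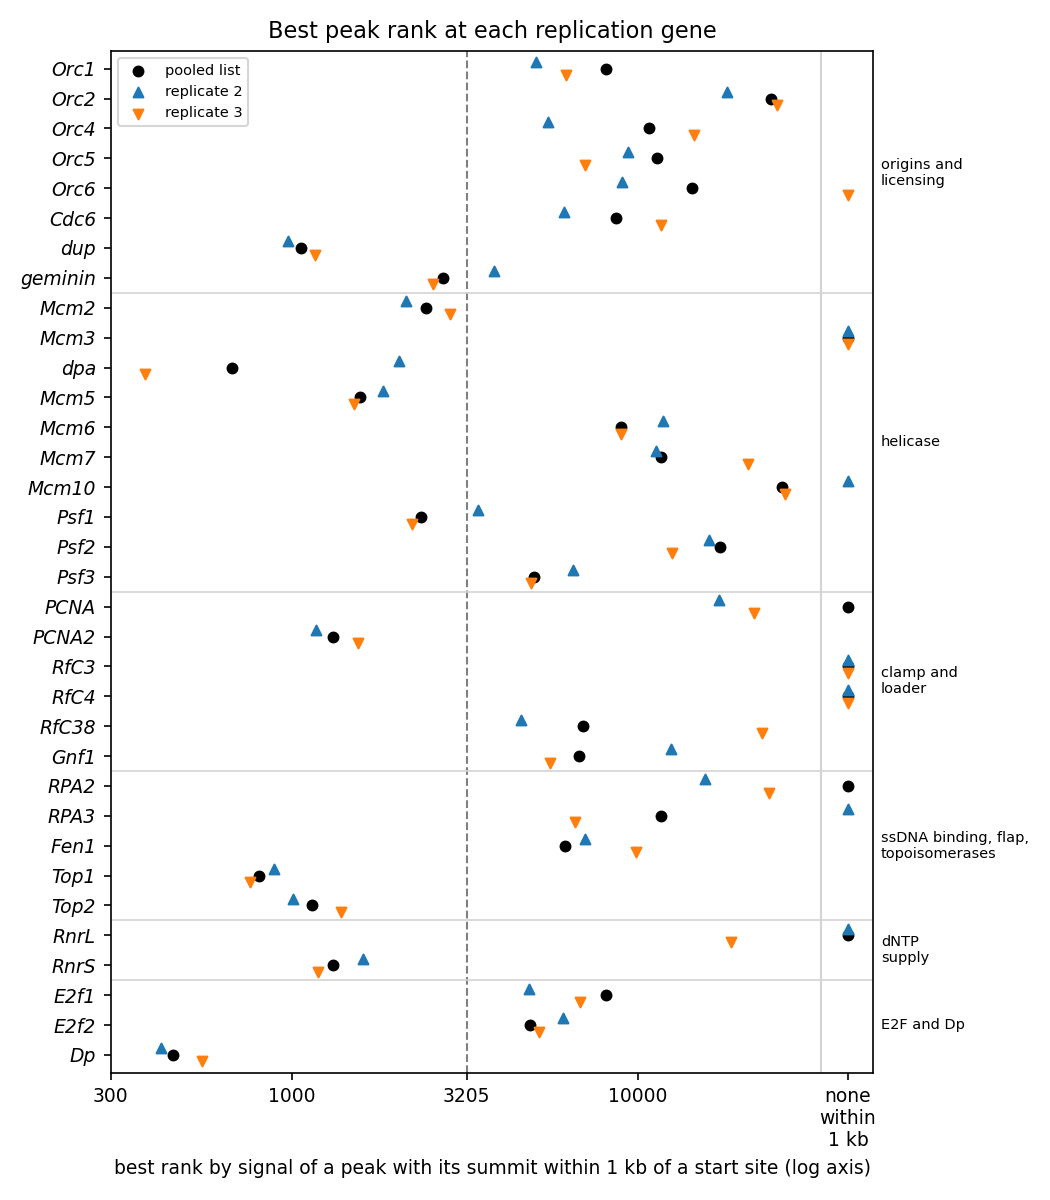
Best rank by signal (log axis, strongest to the left) of any peak with its summit within 1 kb of a start site, for each replication gene in the pooled list (circles) and in replicates 2 and 3 (triangles), grouped by role; the dashed line is the threshold rank of 3205. The 11 bound genes lie left of the line in the pooled list, from Dp at rank 455 to geminin at rank 2748, and no gene falls between geminin and E2f2 at rank 4888.

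At the threshold, the weakest bound gene was geminin, at pooled rank 2748. The nearest genes outside were E2f2 at rank 4888 and Psf3 at rank 5012, so no replication gene sat right at the limit. Going down the pooled list to rank 6410 brought the count to 14 genes (41.2%, against 31.8% of all protein-coding genes), and rank 9615 brought it to 20 (58.8% against 39.9%). Among the strongest ranks the replication genes were not ahead: up to rank 500, 2.94% of them had a peak, against 3.82% of all protein-coding genes. Their 15 thresholded peaks had signals from 79.5 to 213. The median was 123, against 113 for the 2093 thresholded peaks within 1 kb of a protein-coding start site. By position in the list, 1 of these peaks fell in ranks 1 to 641, 6 in ranks 642 to 1282, 3 in ranks 1283 to 1923, 3 in ranks 1924 to 2564 and 2 in ranks 2565 to 3205. These ranges hold equal numbers of thresholded peaks, and 15 peaks are too few to place the replication genes in one part of the list.

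**Figure D2:**
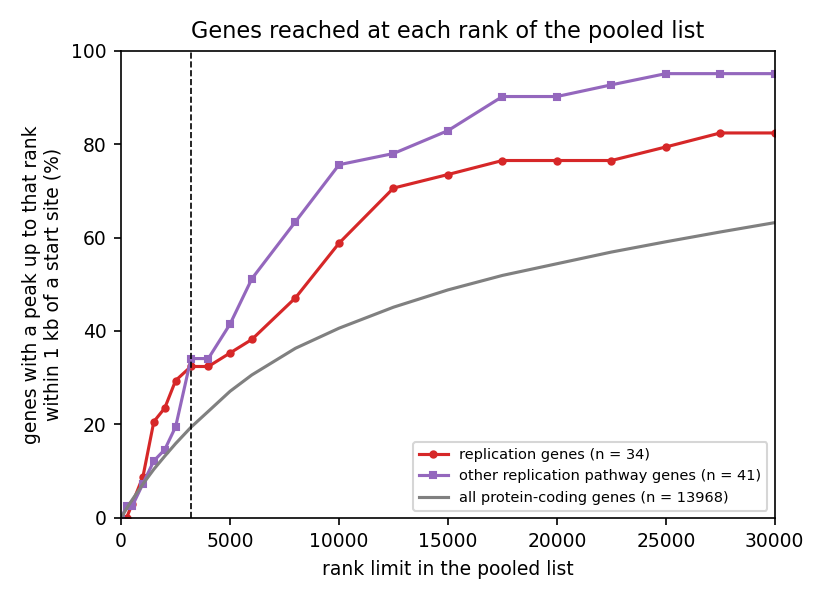
Share of genes (%) with a peak summit within 1 kb of a start site up to each rank limit of the pooled list, for the 34 replication genes (red), 41 further genes of the replication pathway (purple) and all 13968 protein-coding genes (grey); the dashed line is the threshold rank of 3205. The curves run together up to rank 1000, where 8.82% of replication genes and 7.25% of all protein-coding genes were reached, and end at 82.4% and 63.2%.

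In origin recognition and licensing, 2 of 8 genes were bound (25%, interval 3.19 to 65.1, against 19.4% of all protein-coding genes). These were the loading factor and its inhibitor. The gene dup, the fly Cdt1 that brings the MCM ring to the origin, has 2 start sites. Its stronger peak at 2R:15380524-15380913 (dm6) had a signal of 137, pooled rank 1063 and a summit inside the gene, 105 bp upstream of the internal start site. Replicate 2 placed this peak at rank 979 and replicate 3 at rank 1165. A weaker dup peak at 2R:15381104-15381493 had its summit 311 bp upstream of the outer start site, a signal of 81.4 and pooled rank 2638. It ranked 3023 in replicate 2 and 2723 in replicate 3. Both dup peaks lay on the promoter it shares with SRPK, a kinase of splicing factors, whose start site was 5 bp from the stronger summit and thus nearer to it than that of dup. The inhibitor geminin had the weakest peak of all the bound genes, at 2R:6656213-6656602, with a signal of 79.5 and pooled rank 2748. Its summit lay 7 bp upstream of a start site inside the gene. The peak ranked 3835 in replicate 2, beyond that list's 3205 strongest peaks, and 2559 in replicate 3.

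Of the origin recognition complex, which marks the origins, none of the 5 subunit genes examined was bound. Among all protein-coding genes 19.4% were bound, and 5 genes are too few to be set apart from that share. Their best pooled ranks were 8090 for Orc1, 10816 for Orc4, 11403 for Orc5, 14400 for Orc6 and 24245 for Orc2, all well below the threshold. Replicate 2 placed Orc1 at rank 5102 and Orc4 at rank 5510, higher than replicate 3 with 6225 for Orc1 and 14555 for Orc4. These ranks belong to different regions, so they do not compare one site. The summits lay at -383 bp in replicate 2 and -113 bp in replicate 3 for Orc1, and at 123 bp and -45 bp for Orc4. Cdc6, the ATPase that joins the complex on the origin, had a best pooled rank of 8677.

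In the helicase group, 4 of 10 genes were bound (40%, interval 12.2 to 73.8, against 19.4% of all protein-coding genes), 3 of them among the 6 subunits of the MCM ring. The strongest was dpa, which encodes Mcm4, with a peak at 2R:7499802-7500191, a signal of 175 and pooled rank 674. Its summit lay 120 bp upstream of a start site inside the gene. The replicates parted at this gene: the peak ranked 2049 in replicate 2 and 376 in replicate 3. Mcm5 had a peak at 3R:10788202-10788591 with a signal of 111, pooled rank 1572 and replicate ranks of 1833 and 1519 in replicates 2 and 3. Its summit lay 127 bp upstream, in the interval towards Art1, an arginine methyltransferase gene.

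Mcm2 had a weaker peak at 3R:8264697-8265086, with a signal of 85.2, pooled rank 2443 and its summit 78 bp upstream. Replicate 2 placed it at rank 2136 and replicate 3 at rank 4703, where a stronger peak of rank 2876 had its summit at position -235 bp relative to the Mcm2 start site. This is the peak that Mcm2 shares with RPA1, the large subunit of the single-strand binding protein RPA, which is transcribed the other way from a start site 519 bp from that of Mcm2. The summit was 441 bp from the RPA1 start. RPA1 is the gene listed as RpA-70, and with it counted 12 of 35 genes were bound (34.3%), although both genes then rest on the same peak.

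Mcm3 had no region within 1 kb in any of the 3 ranked lists. Its nearest thresholded summit was 1094 bp from the start site, just beyond the limit. Mcm6 (best pooled rank 8980) and Mcm7 (rank 11707) were listed only at low ranks, and Mcm10, which acts in helicase activation outside the ring, was at rank 26211 in the pooled list and had no region in replicate 2.

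Of the 3 GINS subunits examined, which join the MCM ring in the active helicase, Psf1 alone was bound. Its peak at 3L:1247759-1248148 had a signal of 87.1 and pooled rank 2366, and ranked 3457 in replicate 2 and 2222 in replicate 3. The summit lay 277 bp upstream of Psf1 but only 66 bp from the start site of Sac1, a phosphoinositide phosphatase gene on the other strand. Psf3 had a best pooled rank of 5012, with 6518 in replicate 2 and 4934 in replicate 3, and Psf2 had a rank of 17275.

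Among the 6 genes examined of the clamp and its loader 1 was bound (16.7%, interval 0.421 to 64.1, against 19.4% of all protein-coding genes). This was PCNA2, which encodes a second PCNA protein of the fly. Its peak at 2L:19583973-19584362 had a signal of 123 and pooled rank 1319, with close ranks of 1178 in replicate 2 and 1556 in replicate 3. The summit was 178 bp upstream of PCNA2 and 67 bp from the start site of the uncharacterised gene CG10366. PCNA itself, the clamp of the fork and a classic DRE-driven gene of the fly, had no pooled region within 1 kb. Its regions ranked 17183 in replicate 2 and 21619 in replicate 3, and its nearest thresholded summit was 1112 bp away. The 4 genes of the clamp loader examined were all without a thresholded summit: Gnf1, its large subunit, had a best pooled rank of 6762 and RfC38 one of 6946, while RfC3 and RfC4 had no region in any list. RfC38 also showed how far the replicates part at low ranks, with 4593 in replicate 2 and 22923 in replicate 3.

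Both topoisomerase genes, whose products relieve the twist ahead of the fork, were bound. They belong to a role group with 2 of 5 genes bound (40%, interval 5.27 to 85.3, against 19.4% of all protein-coding genes). Top1 had its stronger peak at X:15323224-15323613, with a signal of 160 and pooled rank 804, and ranks of 890 in replicate 2 and 756 in replicate 3. It lay inside the gene, 172 bp upstream of an internal start site, and no other gene started within 1 kb. The weaker Top1 peak at X:15319236-15319625 had a signal of 83.8, pooled rank 2528 and a summit 48 bp upstream of the first start site, and ranked 2444 in replicate 2 and 2815 in replicate 3. Top2 had a peak at 2L:19453352-19453741 with a signal of 132, pooled rank 1145, a summit 57 bp upstream, and ranks of 1008 in replicate 2 and 1389 in replicate 3.

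Of the remaining genes of this group, which coat single-stranded DNA or trim Okazaki fragments, none was bound. RPA3 had a best pooled rank of 11646 and no region in replicate 2. RPA2 had no pooled region, with ranks of 15657 in replicate 2 and 23967 in replicate 3. Fen1, the flap endonuclease, had a best pooled rank of 6158.

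The subunits of ribonucleotide reductase, which makes deoxynucleotides, parted. RnrS, the small subunit, had a peak at 2R:11985323-11985712 with a signal of 123, pooled rank 1321, a summit 125 bp upstream, and ranks of 1607 in replicate 2 and 1189 in replicate 3. RnrL, the large subunit, had no region in the pooled list or in replicate 2, and one at rank 18662 in replicate 3.

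Of the transcription factors of the S-phase programme, Dp carried the strongest peak of the 34 genes, while neither E2F gene was bound. Dp, the partner of both fly E2F proteins, had 3 thresholded peaks. The strongest, at 2R:13223218-13223607, had a signal of 213 and pooled rank 455, with ranks of 419 in replicate 2 and 551 in replicate 3, and a summit 178 bp upstream of a start site inside the gene. The next, at 2R:13222195-13222584, had a signal of 142 and rank 1010. Its summit was 43 bp upstream of the outermost Dp start and 52 bp from a start of Fsn, an F-box protein gene. This summit lay inside the annotated Fsn gene. The remaining Dp peak, at 2R:13223794-13224183, had a signal of 137 and rank 1065, and its summit was 398 bp downstream of a start site. The activator E2f1 had a best pooled rank of 8119 and the repressor E2f2 of 4888.

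The replicates gave largely the same bound genes. When each replicate's own 3205 strongest peaks were used, 9 of 34 replication genes were reached in replicate 2 (26.5%, against 19.7% of all protein-coding genes) and 11 in replicate 3 (32.4% against 18.9%). The 11 of replicate 3 were the 11 bound genes, and replicate 2 lacked geminin and Psf1. Of the 11 bound genes, 9 (81.8%) were thus in the strongest peaks of both replicates, close to the 79.6% of all bound protein-coding genes. The bound genes were called from the pool of these same replicates, so such agreement is partly built in. Mcm2 counted in replicate 3 through another peak, of rank 2876, since the matching peak ranked 4703 there. Signals were on a separate scale in each list, so replicates are compared by rank.

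**Figure D3:**
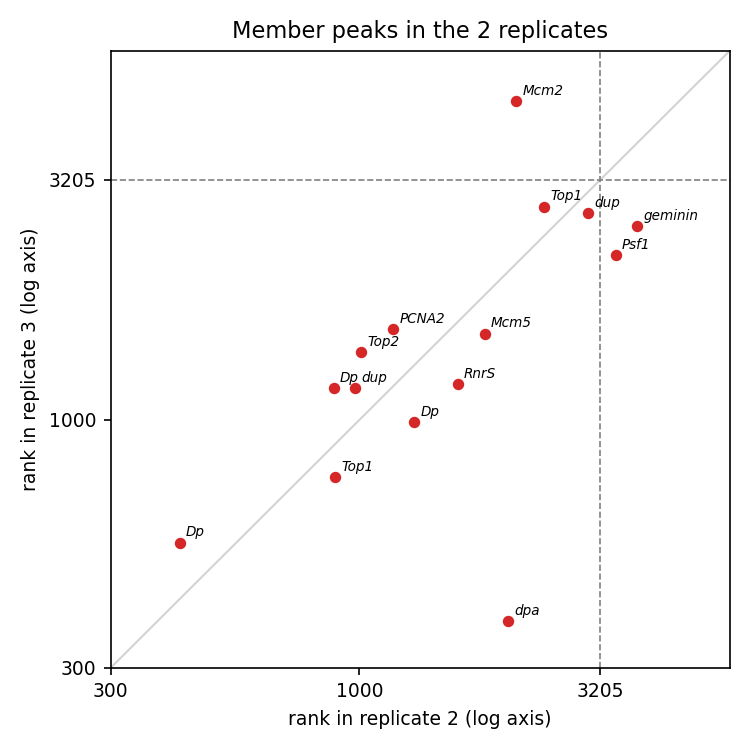
Rank of the matching peak (summit within 150 bp) in replicate 2 and in replicate 3 for each of the 15 thresholded peaks at replication genes (log axes); dashed lines mark rank 3205 and the grey line equal ranks. Most peaks lie near the line of equal ranks, dpa is far stronger in replicate 3 (rank 376 against 2049 in replicate 2), and Mcm2 is weaker there (4703 against 2136).

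The summits sat just upstream of the nearest annotated start sites. For the strongest peak of each bound gene, the summit was upstream in 11 of 11. This held both from the replication gene's own nearest start and from the nearest start of any gene. Of all thresholded peaks near protein-coding starts, not only the strongest of each gene, 1650 of 2093 (78.8%) were upstream. At dpa, dup, geminin, Top1 and Dp the strongest summit lay inside the gene, upstream of an internal start and downstream of the outermost start. Measured from the nearest start of the replication gene, the median position was 125 bp upstream. The distances ran from 7 to 277 bp, 10 of them within 200 bp. Measured from the nearest protein-coding start of any gene, the median was 78 bp upstream for these 11 summits, against 82 bp upstream for the peaks near protein-coding starts, where the nearest start was used too. For 8 of the 11 bound genes, a thresholded summit had no protein-coding start site nearer to it than that of the replication gene. At dup, PCNA2 and Psf1 the start site of a neighbour was closer. Counting a summit only for the protein-coding gene with the nearest start left 8 of 34 replication genes (23.5%), against 13.8% of all protein-coding genes.

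Nearly all bound replication genes had a head-to-head neighbour, that is, another protein-coding gene starting on the other strand at most 1 kb upstream. Such neighbours were common in the list as a whole, at 21 of 34 genes (61.8%) against 36.2% of all protein-coding genes. Among the 21, 10 were bound (47.6%, interval 25.7 to 70.2), against 33.8% of protein-coding genes with such a neighbour. Of the 13 replication genes without a neighbour only Top1 was bound (7.69%, interval 0.195 to 36), against 11.2% of protein-coding genes without a neighbour. The neighbours of bound genes were RPA1 for Mcm2, Art1 for Mcm5, didum for dpa, SRPK for dup, sced for geminin, CG10366 for PCNA2, CG34231 for RnrS, CG10026 for Top2, Fsn for Dp and Sac1 for Psf1. Several of these genes have more than 1 start site, and a summit was called between starts when it lay between any pair of head-to-head starts at most 1 kb apart. This held for the strongest summit at 9 of the 10 genes (90%), against 82.5% of the 1710 bound protein-coding genes with such a neighbour. The exception was Dp. Its strongest summit lay inside the gene, but so did those of dpa, dup and geminin, which were between a pair of starts. Between the closest pair of starts alone lay 6 of the 10 (60%), those of Mcm2, Mcm5, dup, PCNA2, RnrS and Top2, against 66.8% of those protein-coding genes. A peak in a shared promoter cannot be assigned to either gene from these data. A close neighbour did not go with a peak in every case: Orc5 starts 96 bp from Arpc1, RfC38 92 bp from CG4751, E2f2 56 bp from Mpp6 and Psf3 99 bp from flw, and none of these was bound. The replication genes with 2 or more start sites were bound at 5 of 11 (45.5%), against 32% of such protein-coding genes, and those with 1 start at 6 of 23 (26.1%) against 14.9%, so the share was higher with more start sites in both sets.

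**Figure D4:**
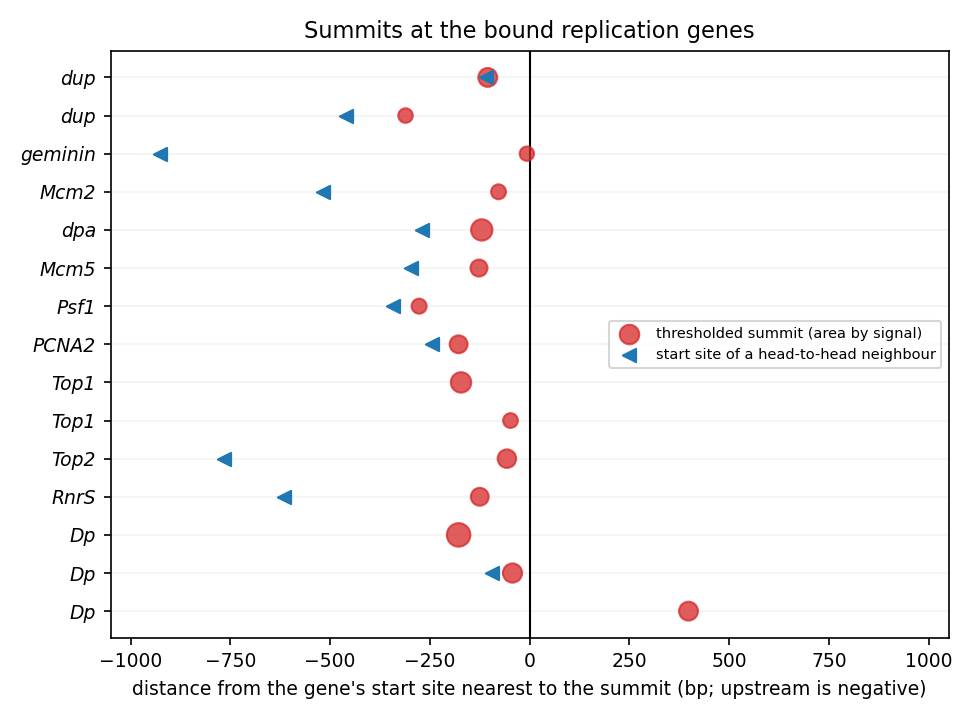
Distance (bp, upstream negative) of each of the 15 thresholded summits from the nearest start site of its replication gene (red circles, area by signal) and of the nearest start site of a head-to-head neighbour, where within the axis (blue triangles). All but 1 summit, the weakest of 3 at Dp, lie upstream of that start, and the start of a neighbour lies further upstream at most of them.

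The E2F sequence was found in more promoters of replication genes than of all genes, beyond counting error. For the full DRE (TATCGATA), the difference in these 34 genes was within counting error. Promoters were read from 250 bp before to 50 bp after each start site, both strands were searched, and overlapping matches were allowed, so the palindromic DRE is read the same on both strands. The E2F sequence was present in 15 of 34 replication genes (44.1%, exact 95% interval 27.2 to 62.1), against 8.71% of all protein-coding genes. They were the MCM genes Mcm2, Mcm3, dpa, Mcm5 and Mcm6, the origin genes Orc1, Orc4, Orc5, Orc6 and dup, and RfC4, RnrL, RnrS, Top1 and Psf1. The DRE was present in 7 (20.6%, interval 8.7 to 37.9, against 10.2%): Orc2, Orc5, Psf1, Psf3, PCNA, Gnf1 and Top2. Motif 1 was present in 5 (14.7%, interval 4.95 to 31.1, against 8.7%): Mcm3, Mcm10, Orc5, RfC38 and Top1. The relaxed Cnc-Maf sequence TGACNNNGC, the part of the antioxidant element that a dimer of Cnc with a small Maf protein reads, was present in 4 (11.8%), near the 11.2% of all protein-coding genes, and these were E2f1, E2f2, Top1 and Top2. No other Maf sequence was searched. The E-box CAGCTG was present in 10 (29.4% against 22.3%).

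The share of bound genes was 46.7% with an E2F sequence and 21.1% without it, on few genes each. Of the 15 with it, 7 were bound (46.7%, interval 21.3 to 73.4), against 26.5% of all protein-coding genes with the sequence. Of the 19 without it, 4 were bound (21.1%, interval 6.05 to 45.6), against 18.7%. The intervals of both shares of the replication genes overlap. For the DRE, 2 of 7 replication genes with it were bound (28.6%, interval 3.67 to 71), Top2 and Psf1, against 31.3% of all protein-coding genes with it. Of the 27 without it, 9 were bound (33.3%, interval 16.5 to 54), against 18% of such protein-coding genes. Over all protein-coding genes the share was higher with a DRE than without, and 7 replication genes give an interval too wide to place them against either share.

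**Figure D5:**
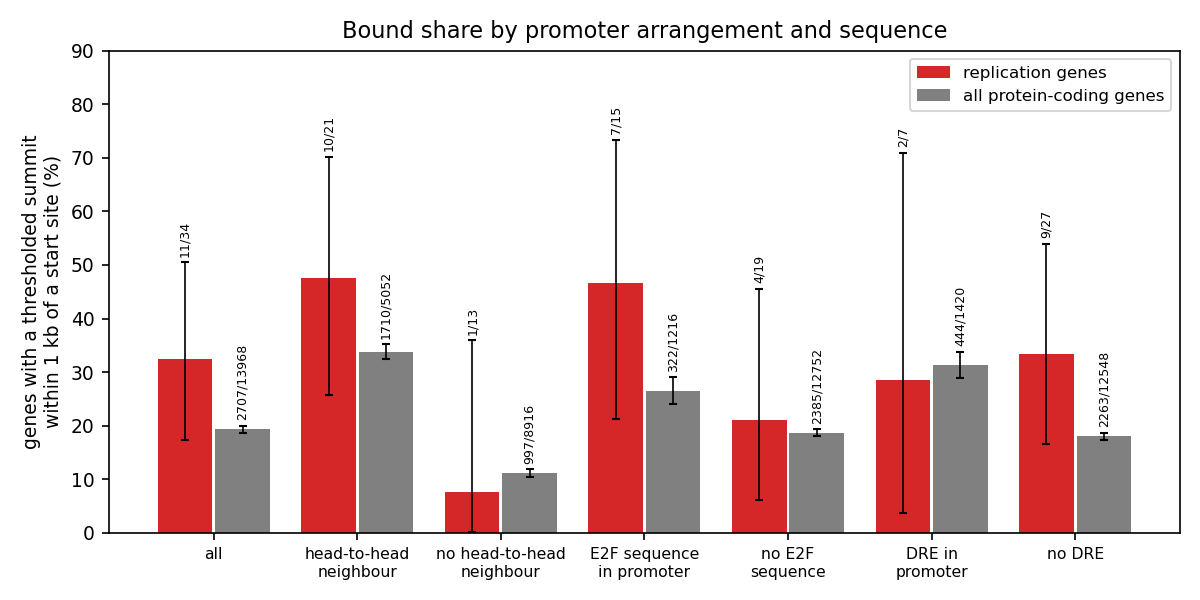
Share of genes (%) with a thresholded summit within 1 kb, for replication genes (red) and all protein-coding genes (grey), over all genes and split by a head-to-head neighbour, by an E2F sequence and by a DRE in the promoter; bars of error are exact 95% binomial intervals and the numbers give bound over all genes. The replication genes with a head-to-head neighbour (10 of 21) and those without (1 of 13) are furthest apart, with overlapping intervals.

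Within 100 bp of the summits, few of these sequences were found. The E2F sequence lay at 3 of the 15 summits (20%, against 4.11% of peaks near protein-coding starts), those of dpa, RnrS and dup. In these windows the match began 87 bp upstream of the nearest start site in dpa and 22 bp upstream in dup. RnrS held 2 matches, beginning 37 and 54 bp upstream of its start and 88 and 71 bp from the summit. In Mcm2 and Mcm5 the E2F sequence began 36 and 32 bp downstream of the start, outside the summit windows. The DRE lay at 1 summit, that of Top2 (6.67% against 8.65%), and it began 54 bp upstream of the start. Psf1 has both sequences, a DRE beginning 80 bp and an E2F sequence 54 bp upstream of the start. Yet its summit was 277 bp upstream, inside Sac1. The relaxed Cnc-Maf sequence also lay at 1 summit, again that of Top2 (6.67% against 6.21%), so 14 of the 15 summits had no match within 100 bp. Summit windows of the replication genes had a median GC content of 42.3%, against 37.3% of the peaks near protein-coding starts. A match describes the letters in the window and does not show which factor bound there.

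Other genes of the pathway were bound at a like share. Of 41 further genes of replication, 14 had a thresholded summit within 1 kb (34.1%, interval 20.1 to 50.6), against the 19.4% of all protein-coding genes, and their median best pooled rank was 5483. With the nearest gene only, 11 were left (26.8%, against 13.8% of all protein-coding genes). At Prim1, Chrac-14 and Ctf4 the start site of another gene was nearer to the summit. Of the polymerases, PolA1, the catalytic subunit of the polymerase that starts strands (signal 75.1), Prim1 of the primase (97.4), PolD2 of the lagging-strand polymerase (117), and PolE4 (80.1) and Chrac-14 (91.6), histone-fold subunits of the leading-strand polymerase, were bound. The kinase that fires origins was bound at both subunit genes. Its catalytic subunit Cdc7 had a signal of 81.1, 18 bp from the start, and its activator chif had the strongest peak of the pathway, with a signal of 379 and pooled rank 123. The summit of this chif peak was 997 bp from the start site, and a weaker chif peak (signal 120, rank 1380) had its summit 104 bp upstream of a start. The DRE-binding factor Dref itself had a signal of 171 (pooled rank 701) 41 bp from its start, and Rbf2, a retinoblastoma-family repressor that acts with E2F2, had a signal of 157 (rank 837). The other bound genes were Ctf4 (signal 124), which couples helicase and polymerase alpha, Claspin (88.2), a checkpoint mediator, the gene FBgn0263979 of the chromatin assembly protein p55 (78), dre4 (81.1), a subunit of the histone chaperone FACT, and dUTPase (73.7), which keeps uracil out of DNA. Orc3, the subunit of the origin recognition complex not among the members, was unbound like the others, at rank 6508. The E2F sequence was in 16 of these 41 promoters (39%, interval 24.2 to 55.5), against 8.71% of all protein-coding genes. The DRE was in 13 (31.7%, interval 18.1 to 48.1), against 10.2%. For both sequences the lower bound in this list lay above the share of all genes.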

How the data were processed

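Anti-GFP ChIP-seq peak lists on dm6 from 2 biological replicates of maf-S-GFP embryos were used; the dm3 lists were not used here. Per the labels' file names and the text deposited with each sample, the authors made a list for each replicate and for the pool, derived from the replicate alignments and a further file shared by both replicates, whose kind is not stated, and a list that passed the optimal IDR threshold. Each deposited peak had a summit, a signal value from the peak caller, used for ranks within a list, and a −log10 q-value, which was 3.81 for all thresholded peaks and was not used. Chromatin was sheared to 200 to 800 bp, per the labels. Aligner, peak caller, IDR threshold and depth are not given in the sources used here, so the precision of a single signal is unknown.

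Genes were those of Ensembl release 115 and sequence that of RefSeq Release 6; 0 peaks lay outside an arm. Summits were set within 1 kb of any start site; replicate peaks matched within 150 bp; motifs were searched within 100 bp of summits and in promoters. Intervals are exact binomial. No test was run, because there is 1 group. The counting was checked on simulated peaks. Python 3.11.15, numpy 2.4.6, scipy 1.17.1, pandas 2.3.3 and matplotlib 3.10.9 were used. Every member is named, with full values where bound and the best pooled rank where not; of the further pathway genes the bound ones are named, and Orc3 was added after its value was seen. The members and lists were chosen with earlier results of these data known. The head-to-head, start-site, between-starts and nearest-start descriptions, and the promoter stretches shown, were chosen after the data were seen. The alternatives were other distances, a stricter threshold, the nearest gene only, peak intervals, each replicate alone, other promoter windows and the DRE core.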

Additional observations from a re-analysis of the deposited data

How the results depend on the processing

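The count of 11 bound replication genes was 9 with replicate 2 alone (26.5%, against 19.7% of all protein-coding genes). With replicate 3 alone it was 11 (32.4% against 18.9%), and within 500 bp 11 (32.4% against 16.9%). It was 8 with only the stronger 1602 peaks (23.5% against 11%) and 8 with the nearest gene only (23.5% against 13.8%). Peak intervals gave 13 (38.2% against 20.3%) and added Mcm3 and PCNA. The count was 20 within 5 kb (58.8% against 36%), adding E2f1, E2f2, Mcm3, Mcm6, Orc1, Orc4, Orc5, PCNA and RPA2. The share stayed above that of all protein-coding genes under each of these settings. Of the 41 further pathway genes, 5 were left with the stronger 1602 peaks (12.2% against 11%). With either replicate alone the count was 11 and 11 (26.8%, against 19.7% in replicate 2 and 18.9% in replicate 3). The median best rank of the replication genes was 8104.5 in the pooled list and ran from 6324 to 6922.5 when a single replicate was ranked; it was 9746.5 within 500 bp (23672.5 for all protein-coding genes) and 2265 within 5 kb (5546), since the distance sets how many regions can count. The DRE core ATCGAT, a shorter sequence, was in 16 promoters (47.1% against 26.3%), and no interval was computed for it. The statement that the DRE difference lay within counting error thus holds for the full sequence only. Matching RpA-70 through its synonym, chosen after seeing the data, gave 12 of 35 bound (34.3% against 19.4%). With 34 genes the interval of a share is wide, and depth cannot be weighed from these lists.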

Other observations

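Regulators of the cell cycle outside replication were also described. Of 33 such genes, 14 had a thresholded summit within 1 kb (42.4%, exact 95% interval 25.5 to 60.8), against 19.4% of all protein-coding genes, and their median best pooled rank was 3918. The strongest was mts, the catalytic subunit of protein phosphatase 2A, with a signal of 190 and pooled rank 582, and its regulatory subunit tws had a signal of 92.4. The kinase genes tefu (signal 164), aurA (147), grp (138), Cdk4 (114), Cdk1 (85.1) and polo (77.5) were bound, as were the spindle checkpoint genes Bub3 (126), BubR1 (107) and mad2 (74.5). The mitotic cyclin CycB had a signal of 113, fzr, an activator of the anaphase-promoting complex, 109, and the Cdk subunit Cks30A 72.6, close to the lowest thresholded signal of 72.3. Counting only the gene with the nearest start left 9 of the 33 (27.3%, against 13.8% of all protein-coding genes). The genes lost were mts, tefu, aurA, grp and Bub3, which had the strongest signals of the bound regulators. At each of them the start site of another gene was nearer to the summit, so these peaks cannot be credited to the named gene.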
